A study of Arabidopsis thaliana with 12 samples.

Results

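Leaf transcripts of the Arabidopsis thaliana mutant sex4-3 were compared with those of wild type Columbia shortly before the end of the night, to describe how close the mutant stayed to wild type across genes. The members were the arrays whose titles name the sex4-3 and Columbia wild type replicates, which are 6 of the 12 arrays in the series, with 3 per genotype. The mutant was the insertion line Salk_102567, labelled as carrying the sex4-3 mutation, and the wild type was Columbia0. The other genotypes, used here to set the size of the differences, were ptpkis2, the insertion line Salk_053285, and sex1-3, an induced mutation in Columbia, with 3 arrays each. Each mutant was a single allele, and no second allele or complemented line was analysed here. All plants grew in soil under a 12 h photoperiod of 100 micromol photons m-2 s-1 with the air at 20 °C, and leaves were frozen 0.5 h before the lights came on. The labels speak of 3 leaves and 8 plants per genotype but not of how they were divided over arrays, so p-values measure only the spread between arrays, which may be technical.

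Leaves store part of the day's photosynthate as starch in the chloroplast and degrade it at night to feed sucrose synthesis and respiration. Glucan, water dikinase (SEX1) and phosphoglucan, water dikinase (PWD) add phosphate to the granule surface, beta-amylases then release maltose, and the phosphatase SEX4 removes the phosphate again so that the amylases can proceed. Loss of SEX4 slows starch breakdown and gives a starch excess phenotype, and PTPKIS2, also known as LSF1, is a related protein needed for normal breakdown.

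Each array gave 1 signal intensity per probe set, a set of oligonucleotides that reports 1 transcript or a few. Without the 64 control probe sets, and with the dimmest 40% of the rest dropped by mean log2 signal, 13647 of 22746 probe sets were compared. Wild type replicate 2 stood apart, with a median signal of 62.2 against 24.0 to 29.7 elsewhere, and with spike-in control transcripts at a median of 23.7 times their level on the other arrays, against 0.537 to 1.44 times on the rest. Chloroplast-encoded transcripts made up 8.83% of the summed signal on that array and 2.58% to 4.09% on the others. The main results are therefore given with all 12 arrays and without wild type replicate 2. Many values for single genes and lists, and most tests between mutants for them, are from the fit without replicate 2. Some of those calls between mutants did not pass with all arrays. RCA, which encodes Rubisco activase of leaf chloroplasts, had signals of 9023, 8239 and 10121 on the sex4-3 arrays and 9507, 12698 and 5870.3 on the wild type arrays. PYK10, a beta-glucosidase of roots, had 1.84, 8.01 and 5.27 in sex4-3 and 0.510, 8.08 and 0.655 in wild type. RCA was the only leaf marker of 11 with a named probe set and was high in both genotypes, while both named root markers of 4 fell below the filter, no seed or floral marker was named, and the 1 named guard cell marker of 5 was FMA, a regulator of stomatal development. FMA had signals of 32.1, 45.8 and 30.0 in sex4-3 and 56.2, 6.03 and 50.1 in wild type, and its difference was not called. No probe set was named SEX4 in the tables used here, and whether an unnamed one reports it could not be told. The labels could therefore not be checked by the transcript of the mutated gene.

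Across the transcriptome, sex4-3 lay close to wild type. With all 12 arrays, 1 of 13647 probe sets (0.00733%) passed limma's test at an adjusted p below 0.05, and it was lower in sex4-3. Without wild type replicate 2 the count was again 1 (0.00733%), and the probe set was the same. The median absolute log2 difference between sex4-3 and wild type was 0.37 with all arrays, which is 1.29-fold, and 0.16 without replicate 2, which is 1.12-fold. The central 90% of the differences lay between -0.93 and 1.05 with all arrays and between -0.51 and 0.46 without replicate 2. Means more than 2-fold apart were found for 1313 probe sets (9.62%), 768 higher and 545 lower in sex4-3, with all arrays. Without replicate 2 there were 187 (1.37%), 89 higher and 98 lower.

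A missed threshold does not show likeness, so the 95% interval of each difference, taken from the same fit, was set against a bound of 1 log2 unit, which is 2-fold. With all arrays the interval lay wholly within 2-fold for 5626 probe sets (41.2%), and without wild type replicate 2 for 10411 (76.3%). The intervals had a median half-width of 0.77 and 0.50 log2 units in the 2 fits. They were not adjusted for the number of probe sets, and the fit assumes the same spread on every array, which wild type replicate 2 did not have. At the other end, the interval lay wholly beyond 2-fold for 4 probe sets (0.0293%) with all arrays and 2 (0.0147%) without replicate 2. For the remaining probe sets, a difference of 2-fold or more could be neither shown nor bounded with these arrays.

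The bound depended on how bright a probe set was. Among the 4549 probe sets with the lowest mean signals, 11.0% had an interval within 2-fold with all arrays and 43.1% without wild type replicate 2. For the 4549 in the middle the shares were 46.9% and 90.3%, and for the 4549 with the highest signals 65.7% and 95.5%. Without replicate 2, 150 of the 187 probe sets whose means were more than 2-fold apart were among the dimmest, 21 in the middle and 16 among the brightest. Closeness was thus best bounded for bright transcripts, and dim ones were bounded less often.

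**Figure D1:**
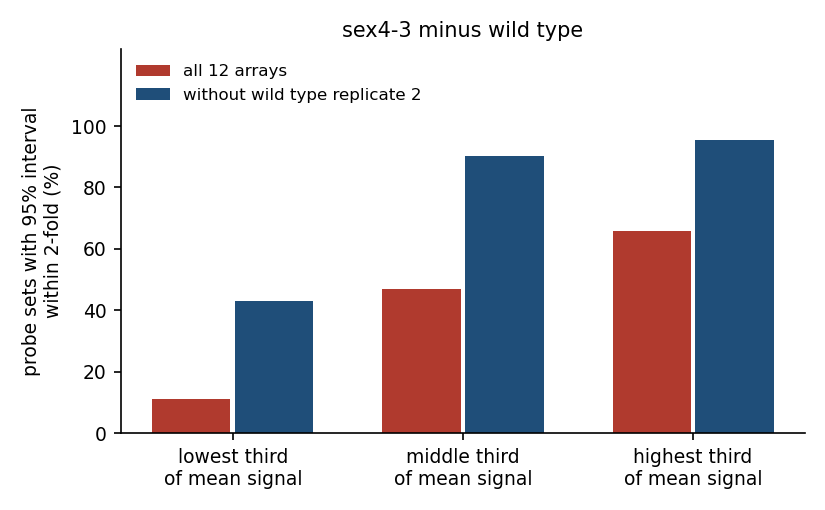
Percentage of probe sets (vertical axis) whose 95% interval for sex4-3 minus wild type lay within 2-fold, for probe sets of low, middle and high mean signal, 4549 each. The share was 11.0%, 46.9% and 65.7% with all 12 arrays and 43.1%, 90.3% and 95.5% without wild type replicate 2.

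Pairs of single arrays were also compared, without a model. The SD of the log2 differences over the 13647 probe sets was 0.458 to 0.615 in the 6 pairs of a sex4-3 array and wild type replicate 1 or 3. In pairs within sex4-3 it was 0.437 to 0.612, and between wild type replicates 1 and 3 it was 0.538. A sex4-3 array therefore differed from wild type replicate 1 or 3 about as much as sex4-3 arrays, or those 2 wild type arrays, differed among themselves. The SDs within sex4-3 were 0.535 and 0.612 for the pairs with replicate 1 and 0.437 for the other pair. Pairs within sex1-3 had 0.533 to 0.590. Pairs within ptpkis2 were closer, at 0.430 to 0.475, so the likeness does not hold against the spread of every genotype. Pairs of ptpkis2 and wild type had SDs of 0.555 to 0.602, and pairs of sex4-3 and ptpkis2 0.504 to 0.599. Both also lay in the range within sex4-3, so this measure does not set sex4-3 apart from ptpkis2 in its closeness to wild type. Pairs of sex1-3 and wild type had SDs of 0.611 to 0.781. Every pair that held wild type replicate 2 had an SD of 1.65 to 1.77, whichever the other array. Pearson correlations of log2 signals across probe sets, which share arrays and are given only as a description, were 0.944 to 0.969 for sex4-3 with wild type, 0.945 to 0.972 within sex4-3, and 0.616 to 0.620 for sex4-3 with wild type replicate 2.

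**Figure D2:**
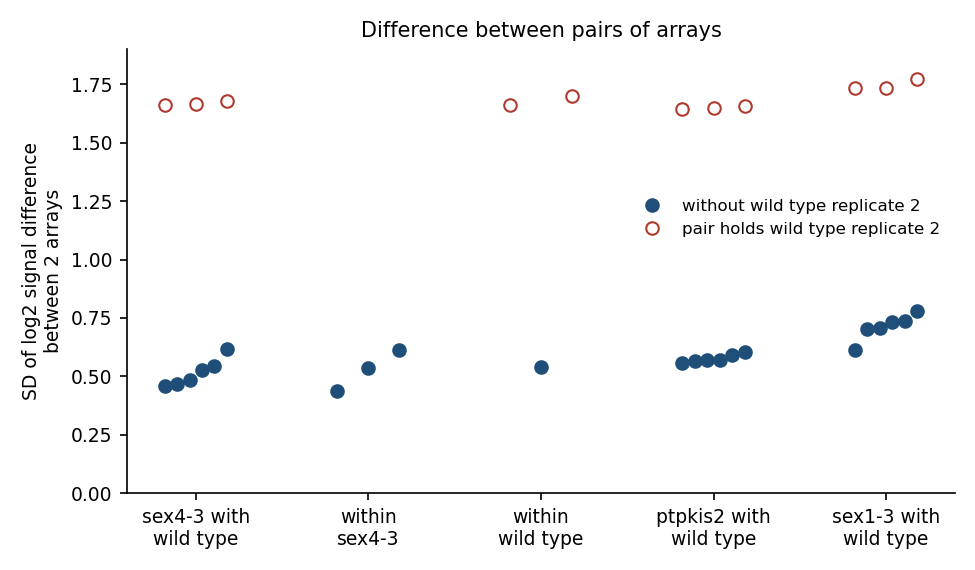
SD of the log2 signal difference between 2 arrays over 13647 probe sets (vertical axis), 1 point per pair, by the genotypes of the pair. Filled points of sex4-3 with wild type (0.458 to 0.615) span nearly the same range as those within sex4-3 (0.437 to 0.612), and open points, pairs that hold wild type replicate 2, lie at 1.65 to 1.77.

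The spread among arrays of 1 genotype can be set beside these differences. The median SD of log2 signal per probe set was 0.234 over the 3 sex4-3 arrays and 0.654 over the 3 wild type arrays, or 0.202 between wild type replicates 1 and 3. It was 0.185 in ptpkis2 and 0.233 in sex1-3. An SD over 2 arrays tends to come out lower than one over 3, so the value for wild type replicates 1 and 3 is not ranked against the others.

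The other mutants, fitted on the same arrays and against the same wild type samples, differed from wild type at more probe sets. Without wild type replicate 2, 369 probe sets (2.7%) were called for ptpkis2 minus wild type and 1211 (8.87%) for sex1-3 minus wild type, beside the 1 for sex4-3. The median absolute log2 difference from wild type was 0.16 for sex4-3, 0.24 for ptpkis2 and 0.29 for sex1-3. With all arrays it was 0.37, 0.39 and 0.46, so sex4-3 and ptpkis2 lay nearly alike there. With all arrays, 36 (0.264%) and 403 (2.95%) were called for ptpkis2 and sex1-3. The comparisons share their wild type arrays, so the direct tests between mutants are the tests of a difference. Between sex4-3 and sex1-3, 1907 probe sets (14%) were called without replicate 2, of which 1145 (8.39%) were higher and 762 (5.58%) lower in sex4-3. Between sex4-3 and ptpkis2 there were 226 (1.66%), of which 154 (1.13%) were higher and 72 (0.528%) lower in sex4-3. With all arrays these counts were 332 (2.43%) and 9 (0.0659%), although no wild type array enters the means compared, since all arrays share 1 estimate of the spread.

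**Figure D3:**
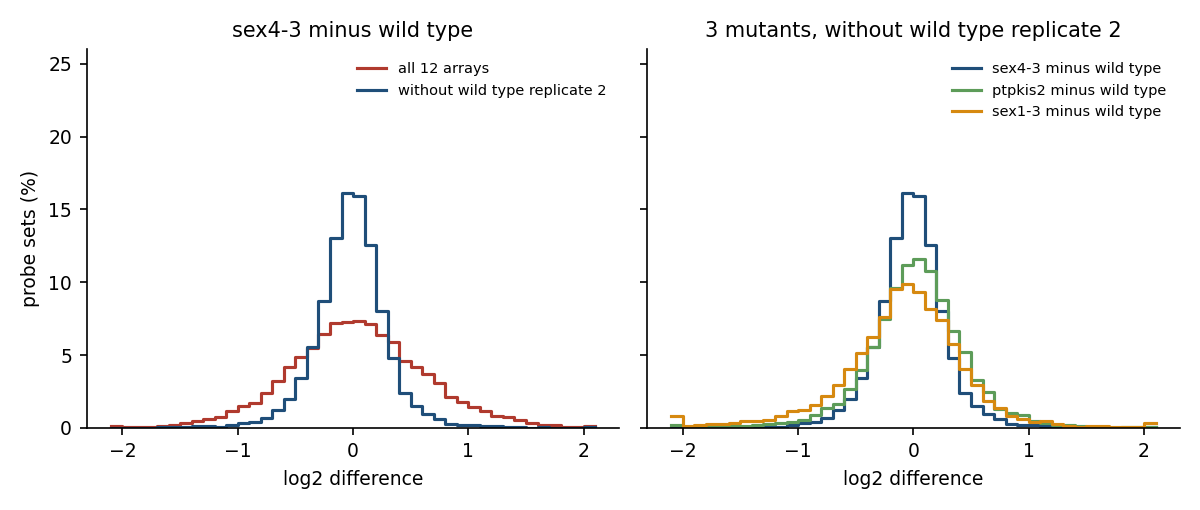
Distribution of log2 differences over 13647 probe sets, in percent of probe sets per bin of the log2 difference, with values beyond the ends of the axis placed in the end bins. Left, sex4-3 minus wild type is narrower without wild type replicate 2 (median absolute difference 0.16) than with all arrays (0.37); right, without replicate 2, sex4-3 is narrower than ptpkis2 (0.24) and sex1-3 (0.29).

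The probe set that passed the test was 256676_at, which is unnamed here, so whether it reports SEX4 itself or another gene could not be told. Its signals were 9.20, 7.52 and 10.4 on the sex4-3 arrays and 101, 64.6 and 103 on the wild type arrays. All 3 sex4-3 signals were lower than every wild type signal, by about 1 order of magnitude from replicates 1 and 3. The difference was -3.29 ± 0.27 (log2 ± SE, limma adjusted p 8.3e-04) with all arrays and -3.51 ± 0.23 (adjusted p 5.0e-06) without replicate 2. Its 95% interval was -3.89 to -2.70 with all arrays and -4.0025 to -3.02 without replicate 2. The ptpkis2 signals were 90.5, 81.5 and 85.8 and the sex1-3 signals 67.2, 77.6 and 101, all above every sex4-3 signal. The direct differences were -3.26 ± 0.21, adjusted p 1.5e-06 for sex4-3 minus ptpkis2 and -3.18 ± 0.21, adjusted p 1.4e-06 for sex4-3 minus sex1-3, both from limma without replicate 2. In 3 scalings or fits that kept all arrays or used only the 6 arrays the call was lost: its difference was -2.85 (adjusted p 0.52) after quantile normalization, -2.89 (adjusted p 0.42) after median centring and -3.29 (adjusted p 0.81) when the sex4-3 and wild type arrays were fitted alone. The call stood in every one of the same settings once replicate 2 was left out.

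Beyond that call, probe set 248676_at, also unnamed here, was the other one whose interval lay beyond 2-fold in both fits. It had 147, 143 and 178 in sex4-3 and 41.4, 19.0 and 31.7 in wild type. Its difference was 2.41 ± 0.44 with all arrays (adjusted p 0.57) and 2.0971 ± 0.40 without replicate 2 (adjusted p 0.22), neither of which passed limma's threshold. All sex4-3 signals exceeded all wild type signals, and ptpkis2, at 142, 293 and 298, was higher still on 2 of its 3 arrays, while sex1-3 had 15.9, 6.62 and 19.3. With replicate 2 left out and only the sex4-3 and wild type arrays in the fit, it was called at an adjusted p of 0.025. The unnamed probe sets 260126_at, 254343_at and 249752_at, which also had high moderated t values, had the same order of means without replicate 2, with sex4-3 and ptpkis2 above wild type and wild type above sex1-3. Probe set 260126_at had 335, 213 and 242 in sex4-3, 299, 294 and 353 in ptpkis2, 88.0, 100.1 and 83.3 in sex1-3 and 118, 5.41 and 108 in wild type, and its difference from wild type without replicate 2 was 1.19 ± 0.19 (limma adjusted p 0.14). Against sex1-3 these 3 and 248676_at were called without replicate 2, and against ptpkis2 none was. Probe set 263046_at, also unnamed, had another order, with 302, 705 and 1044 in sex4-3, 343, 194 and 183 in ptpkis2, 1359.7, 1452 and 1498 in sex1-3 and 138, 32.3 and 269.6 in wild type. All its sex4-3 signals were above all wild type signals, with a difference of 2.51 ± 0.65 and an interval of 1.09 to 3.93, beyond 2-fold, with all arrays, and of 1.65 ± 0.41 without replicate 2 (limma adjusted p 0.48). Without replicate 2 it was lower in sex4-3 than in sex1-3 (-1.24 ± 0.37, adjusted p 0.038), and its difference from ptpkis2 was not called (adjusted p 0.081). With all arrays neither difference was called (limma adjusted p 0.47 against sex1-3).

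Among probe sets with 1 named gene, none was called, and those with the largest moderated t whose signals did not overlap are described here by their values. Signals of sex4-3 and wild type did not overlap for 1166 probe sets (8.54%) with all arrays and 2400 (17.6%) without replicate 2, so separation of 3 against 3 or 3 against 2 was common. The 6 genes on the high side were AT1G62480, AT2G05540, AT1G04770, COR27, AT4G20930 and AT3G56200, with differences of 0.73 to 1.64 without replicate 2. AT1G62480 had 313, 307 and 393 in sex4-3 and 174, 140.0 and 159 in wild type, a difference of 1.09 ± 0.21 with all arrays and 1.01 ± 0.20 without replicate 2. COR27, a cold- and clock-regulated gene, had 95.2, 75.3 and 80.6 in sex4-3 and 48.9, 19.4 and 47.4 in wild type, with differences of 1.23 ± 0.32 and 0.79 ± 0.18. For COR27 the wild type signal of replicate 2 lay below those of replicates 1 and 3, and the sex1-3 signals, 150.2, 193 and 154, were above all others. The limma test of sex4-3 minus sex1-3 gave COR27 -0.98 ± 0.16, adjusted p 0.0012 without replicate 2. With all arrays the adjusted p of that limma test was 0.17, so COR27 was not called.

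On the low side the 6 genes were AT1G68600, AT1G11960, AT4G37295, AT5G14970, BCAT4 and AT1G55590, with differences of -2.12 to -0.62 without replicate 2. BCAT4 encodes the aminotransferase that starts methionine chain elongation for aliphatic glucosinolates, the sulfur-containing defence compounds of Brassicaceae. It had 38.9, 83.6 and 111 in sex4-3 and 124, 242 and 604 in wild type. Every sex4-3 signal was below every wild type signal, but the arrays of each genotype were far apart, and the difference of -1.89 ± 0.53 with all arrays and -1.95 ± 0.53 without replicate 2 was not called (limma adjusted p 0.57 and 0.59). Against ptpkis2, BCAT4 was lower in sex4-3 without replicate 2 (-2.15 ± 0.48, limma adjusted p 0.039) but not called with all arrays (adjusted p 0.33). In all, 2 of 5 tested members of the aliphatic glucosinolate list were called lower than in ptpkis2 without replicate 2, where 0.528% of all probe sets were. The other named members of the aliphatic glucosinolate list were nearer to wild type. UGT74B1, which glycosylates the glucosinolate core, had 103, 85.2 and 87.5 in sex4-3 and 75.2, 9.59 and 196 in wild type, and the transporters GTR1 and GTR2 differed by 0.12 and -0.07 without replicate 2. For all 12 genes of both directions the adjusted p in limma was 0.57 with all arrays and between 0.25 and 0.59 without replicate 2.

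**Figure D4:**
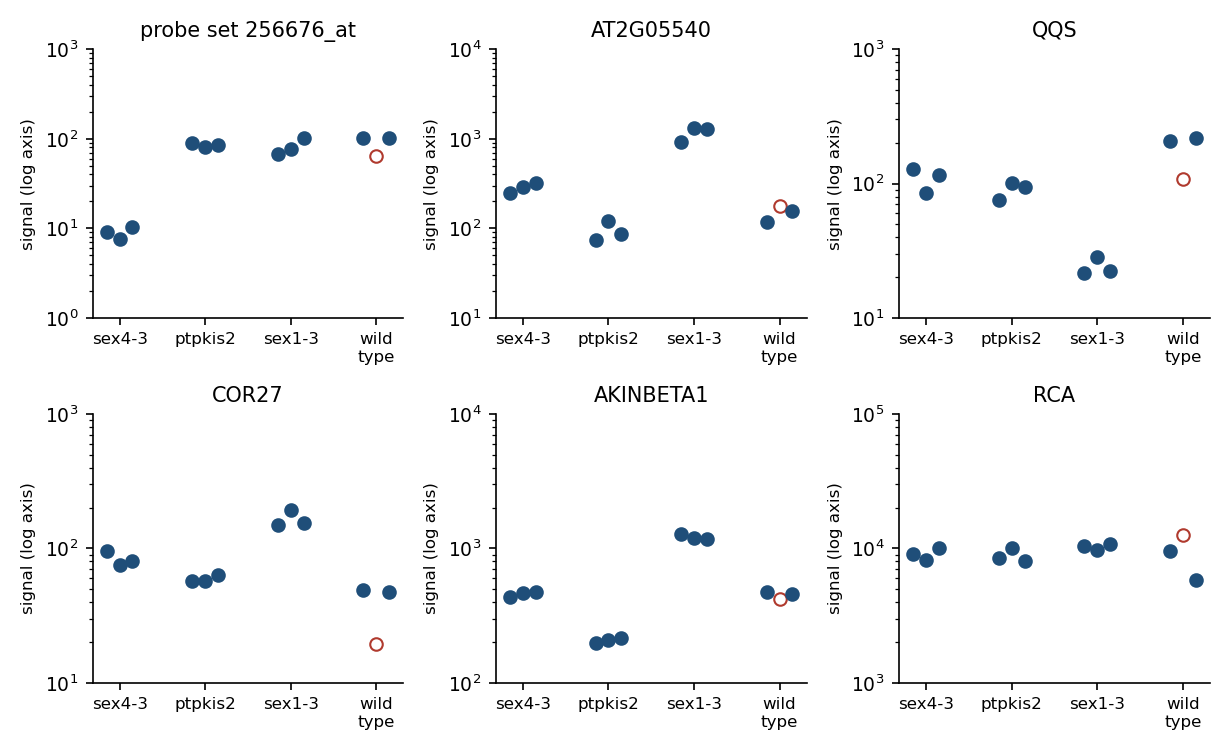
Signal on each array (vertical axis, logarithmic) for 256676_at, AT2G05540, QQS, COR27, AKINBETA1 and RCA, by genotype, with 1 point per array and wild type replicate 2 drawn open in red. The 3 sex4-3 points of 256676_at lie between 7.52 and 10.4, below all other arrays, while those of AKINBETA1 and RCA lie among the wild type points.

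When limma weighted the arrays by their agreement with the rest, wild type replicate 2 received a weight of 0.0384 and 24 probe sets passed, 17 with higher (0.125%) and 7 with lower (0.0513%) signals in sex4-3. Of these, 14 had non-overlapping signals on all 6 arrays and 1 was called without weights. With replicate 2 removed and weights kept for the other 11 arrays, 1 was called, so the count of 24 was reached only with that array kept at a low weight. The 16 unnamed ones had weighted differences of -3.63 to 2.84. The highest belonged to 251895_at, with 28.4, 46.2 and 36.7 in sex4-3 and 3.34, 60.2 and 31.1 in wild type. Those signals overlapped, and only wild type replicate 1, which had the high weight, was far below the rest. The named genes among the 24 were SWEET17, QQS, AT3G16670, AT1G78410, AT1G04770, AT1G62480, AT2G05540 and AT2G32160. AT3G16670 had 862, 786 and 757 in sex4-3 and 221, 215 and 434 in wild type, and AT1G04770 had 326, 263 and 222 in sex4-3 and 135, 138 and 152 in wild type. Both had sex4-3 signals above all wild type signals. SWEET17, a fructose transporter of the vacuole membrane, had 113, 106 and 149 in sex4-3 and 214, 129 and 237 in wild type, with a weighted difference of -0.94 (limma adjusted p 0.045) and -0.89 ± 0.21 without replicate 2 (adjusted p 0.42). Its sex4-3 signals were below wild type replicates 1 and 3 and overlapped replicate 2. Against ptpkis2 SWEET17 was lower in sex4-3 (-1.27 ± 0.19, adjusted p 0.0028), and against sex1-3 it was higher (1.73 ± 0.19, adjusted p 4.7e-05), both without replicate 2. With all arrays the limma adjusted p was 0.19 against ptpkis2, not called, and 0.0054 against sex1-3.

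In the starch degradation list, 3 of 23 genes had a named probe set and were tested, and none was called, against 0.00733% of all probe sets. PWD, which phosphorylates the starch that SEX1 has prepared, had 205, 168 and 127 in sex4-3 and 182, 219 and 248 in wild type. These signals overlapped, and the difference was -0.39 ± 0.21 with all arrays and -0.38 ± 0.21 without replicate 2, with an interval of -0.82 to 0.07 in the second fit. DPE1, the chloroplast disproportionating enzyme, had 40.1, 17.6 and 27.6 in sex4-3 and 24.3, 123 and 28.5 in wild type. Its difference was -0.71 ± 0.58 with all arrays and 0.03 ± 0.41 without replicate 2, so the sign differed between the fits. AMY1, an alpha-amylase, had 11.6, 20.4 and 26.1 in sex4-3 and 25.2, 105 and 22.2 in wild type, and its difference was -1.08 ± 0.70 and -0.37 ± 0.57 in the 2 fits. The interval for AMY1 without replicate 2, -1.60 to 0.87, reached beyond 2-fold, so no closeness could be shown for this dim probe set. The plastid beta-amylases, the debranching enzymes and SEX1 were not identified by a named probe set.

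Of the starch synthesis list, 4 of 17 genes were named, 3 were tested and none was called. SBE2.2, a starch branching enzyme, had 199, 185 and 119 in sex4-3 and 189, 292 and 227 in wild type, with differences of -0.50 ± 0.25 and -0.34 ± 0.23. APL3, a large subunit of ADP-glucose pyrophosphorylase, had 42.5, 31.4 and 38.9 in sex4-3 and 30.2, 64.5 and 37.2 in wild type, and its difference of -0.16 ± 0.40 with all arrays became 0.15 ± 0.35 without replicate 2. APL4, another large subunit, was below the filter, at 15.2, 7.22 and 4.47 in sex4-3 and 7.44, 23.0 and 7.75 in wild type.

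QQS, a gene found only in Arabidopsis whose loss raises leaf starch, was the member of that list with the largest difference without replicate 2. Its signals were 129, 85.2 and 116 in sex4-3, 74.9, 101 and 94.7 in ptpkis2, 21.8, 28.6 and 22.3 in sex1-3 and 209, 108 and 219 in wild type. The sex4-3 signals were below those of wild type replicates 1 and 3 but overlapped replicate 2. The difference from wild type was -0.65 ± 0.30 with all arrays, -0.98 ± 0.22 without replicate 2 (limma adjusted p 0.39) and -1.15 with array weights (adjusted p 0.029), called in the last alone. QQS was higher in sex4-3 than in sex1-3 (2.17 ± 0.20, adjusted p 1.1e-05), and its difference from ptpkis2 was not called (0.28 ± 0.20, adjusted p 0.62).

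Sucrose synthesis and sugar transport had 3 of 20 genes named and tested. SWEET11, which exports sucrose for phloem loading, had 2069, 1419.7 and 1402 in sex4-3 and 746, 529 and 1348 in wild type. All sex4-3 signals were higher than all wild type signals, with a difference of 0.98 ± 0.35 and 0.68 ± 0.30 in the 2 fits, neither called. ATSPS4F, a sucrose phosphate synthase, differed by -0.12 ± 0.22 with all arrays and -0.35 ± 0.17 without replicate 2, and the locus AT2G35840 of the same list by 0.03 ± 0.28 and 0.14 ± 0.27.

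Of 21 listed genes that respond to carbon starvation in leaves, 10 were tested, and none was called between sex4-3 and wild type in either fit. Their median difference was -0.12 with all arrays and -0.19 without replicate 2, beside medians of 0.02 and -0.01 over all probe sets. Members lay on both sides of wild type, and without replicate 2 their median absolute difference was 0.51, against 0.16 over all probe sets. In that fit 6 of 10 intervals lay within 2-fold, against 76.3% of all, and 5 of 10 had an unadjusted limma p below 0.05, against 4.68% of all. By their median absolute difference, these 10 members as a group thus lay further from wild type than most probe sets in that fit. That is not a statement about each member. The lists were chosen with earlier results of these data known, so such counts describe the members and are no test of a list. Against sex1-3, 7 of 10 were lower in sex4-3 without replicate 2, where 5.58% of all probe sets were, and against ptpkis2, 6 of 10 were higher, where 1.13% of all were. AKINBETA1, one of the beta subunits of the energy sensor SnRK1, had 432, 462 and 477 in sex4-3, 199, 207 and 215 in ptpkis2, 1272, 1196 and 1181 in sex1-3 and 474, 418 and 459 in wild type. Its sex4-3 and wild type signals overlapped, and no array of the other mutants fell among them. The difference from wild type was 0.02 ± 0.14 with all arrays and -0.03 ± 0.13 without replicate 2, with an interval of -0.30 to 0.24. Against sex1-3 the limma test gave -1.41 ± 0.11, adjusted p 6.6e-06, and against ptpkis2 1.14 ± 0.11, adjusted p 7.5e-05.

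AT3G15450, a locus of the same list, had 441, 532 and 466 in sex4-3, 145, 138 and 120.3 in ptpkis2, 3178, 3199 and 2730.2 in sex1-3 and 869, 648 and 582 in wild type. Its sex4-3 signals were below all 3 wild type signals, yet the difference of -0.53 ± 0.18 with all arrays and -0.57 ± 0.18 without replicate 2 was not called (limma adjusted p 0.71 in the second fit), and the interval of -0.95 to -0.20 stayed within 2-fold. AT2G20670 and AT4G27450 had differences from wild type of -0.48 ± 0.19 and -0.54 ± 0.26 without replicate 2, of which AT4G27450 had an interval of -1.11 to 0.02. ATG8E, a ubiquitin-like protein of autophagosomes, differed from wild type by 0.35 ± 0.35 and -0.17 ± 0.18 in the 2 fits. SIS, named salt induced serine rich, had 61.9, 61.4 and 75.2 in sex4-3, 13.9, 9.02 and 19.9 in ptpkis2, 375, 346 and 227 in sex1-3 and 81.7, 55.2 and 212 in wild type, and differed from wild type by -0.9995 ± 0.38 without replicate 2. Without replicate 2, 8 of the 10 members were below wild type, and the others were ATL8, a RING-type ubiquitin ligase with a difference of 1.15 ± 0.52 and an interval of 0.03 to 2.27, and AT2G05540. AT2G05540 had 249, 292 and 318 in sex4-3, 74.8, 121 and 86.2 in ptpkis2, 932, 1335 and 1283 in sex1-3 and 118, 177 and 154 in wild type. Its sex4-3 signals lay above every wild type signal, by 0.94 ± 0.23 with all arrays and 1.08 ± 0.22 without replicate 2 (limma adjusted p 0.25), and it was called with array weights at 1.21 (adjusted p 0.029). Against sex1-3 it was lower in sex4-3 (-2.04 ± 0.20, adjusted p 2.0e-05), and against ptpkis2 higher (1.63 ± 0.20, adjusted p 5.9e-04).

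Breakdown of branched-chain and other amino acids, which supplies respiration when sugar is short, had 10 of 18 genes tested. None was called between sex4-3 and wild type, the median difference was 0.14 with all arrays and -0.09 without replicate 2, and 8 of the 10 intervals lay within 2-fold in the second fit, against 76.3% of all probe sets. Against sex1-3, 6 of 10 were lower in sex4-3 without replicate 2 (5.58% of all probe sets), and 3 of 10 were called with all arrays. IVD, isovaleryl-CoA dehydrogenase of leucine breakdown, had 33.5, 45.2 and 48.6 in sex4-3, 232, 208 and 251 in sex1-3 and 37.8, 10.2 and 52.7 in wild type. Its sex4-3 signals overlapped those of wild type and were all below those of sex1-3, with differences of -0.09 ± 0.22 from wild type and -2.45 ± 0.19, adjusted p 6.6e-06 from sex1-3 in limma without replicate 2. MCCA, which encodes part of methylcrotonyl-CoA carboxylase, also in leucine breakdown, had 72.2, 65.6 and 83.0 in sex4-3, 270.4, 337 and 262 in sex1-3 and 81.9, 116 and 98.8 in wild type. MGL, methionine gamma-lyase, had 28.7, 23.0 and 25.1 in sex4-3, 146, 120.0 and 96.0 in sex1-3 and 16.3, 4.97 and 23.0 in wild type, where the lowest sex4-3 signal and wild type replicate 3 were nearly equal. The differences from sex1-3 without replicate 2 were -1.98 ± 0.17, adjusted p 8.1e-06 for MCCA and -2.22 ± 0.29, adjusted p 2.0e-04 for MGL. The locus AT2G26800 of this list and MCCB, the other carboxylase subunit, differed from wild type by -0.13 ± 0.13 and 0.04 ± 0.19 without replicate 2.

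All 9 tested autophagy genes of 13, each a member of the ATG8 family that coats autophagosomes, had an interval within 2-fold without replicate 2, and 7 did with all arrays. The shares of all probe sets were 76.3% and 41.2%. The median difference was -0.03 with all arrays and -0.11 without replicate 2. ATG8F had 1440.4, 1556 and 1536 in sex4-3, 1054, 1061 and 913 in ptpkis2, 1944, 2216 and 1933 in sex1-3 and 1239.8, 1519 and 1520.2 in wild type. Its sex4-3 signals overlapped those of wild type, and it was called against both mutants without replicate 2, at -0.42 ± 0.13, adjusted p 0.038 for sex4-3 minus sex1-3 and 0.58 ± 0.13, adjusted p 0.033 for sex4-3 minus ptpkis2. With all arrays no autophagy gene was called against sex1-3. The other SnRK1 subunits with a named probe set, AT4G16360 (listed as AKINBETA2) and AT2G28060 (listed as AKINBETA3), differed from wild type by 0.34 ± 0.17 and -0.21 ± 0.16 without replicate 2, with all 3 intervals of that list within 2-fold.

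The 6 tested photosynthesis genes, all among the 4549 brightest probe sets, gave no call. LHCB4.1, LHCB4.2 and LHCB4.3, light-harvesting proteins of photosystem II, differed from wild type by 0.30 ± 0.17, 0.12 ± 0.16 and -0.04 ± 0.17 without replicate 2. LHCB4.1 had 8724, 7509 and 8082 in sex4-3 and 7912, 9994 and 5466 in wild type. In the Calvin cycle list, PRK, phosphoribulokinase, had 6587, 5993 and 6971 in sex4-3 and 6120.4, 1658 and 4587 in wild type, where replicate 2 was the lowest of the 6. SBPASE, sedoheptulose-bisphosphatase, had 4515, 5067 and 4200.5 in sex4-3 and 4901, 16125 and 3091 in wild type, where replicate 2 was the highest. RCA differed by 0.03 ± 0.28 with all arrays and 0.28 ± 0.19 without replicate 2, PRK by 0.85 ± 0.38 and 0.30 ± 0.16, and SBPASE by -0.45 ± 0.45 and 0.24 ± 0.19. All 6 genes had an interval within 2-fold without replicate 2, against 95.5% of those 4549, and 3 did with all arrays, against 65.7%.

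The 69 chloroplast-encoded probe sets, a group added because those transcripts were high on wild type replicate 2, differed between the fits with and without that array. Their summed share of signal was 2.99% to 3.70% in sex4-3, against 3.42% and 2.84% on wild type replicates 1 and 3 and 8.83% on replicate 2. The median difference of sex4-3 from wild type was -0.41 with all arrays and 0.14 without replicate 2. None was called in either fit, and 46 of 69 intervals lay within 2-fold without replicate 2, a smaller share than the 76.3% of all probe sets. Against sex1-3, 16 of 69 were higher in sex4-3 without replicate 2, where 8.39% of all probe sets were. With all arrays none of the 69 was called against sex1-3. In whole leaves, fewer cells of a type and less RNA per cell cannot be told apart.

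**Figure D5:**
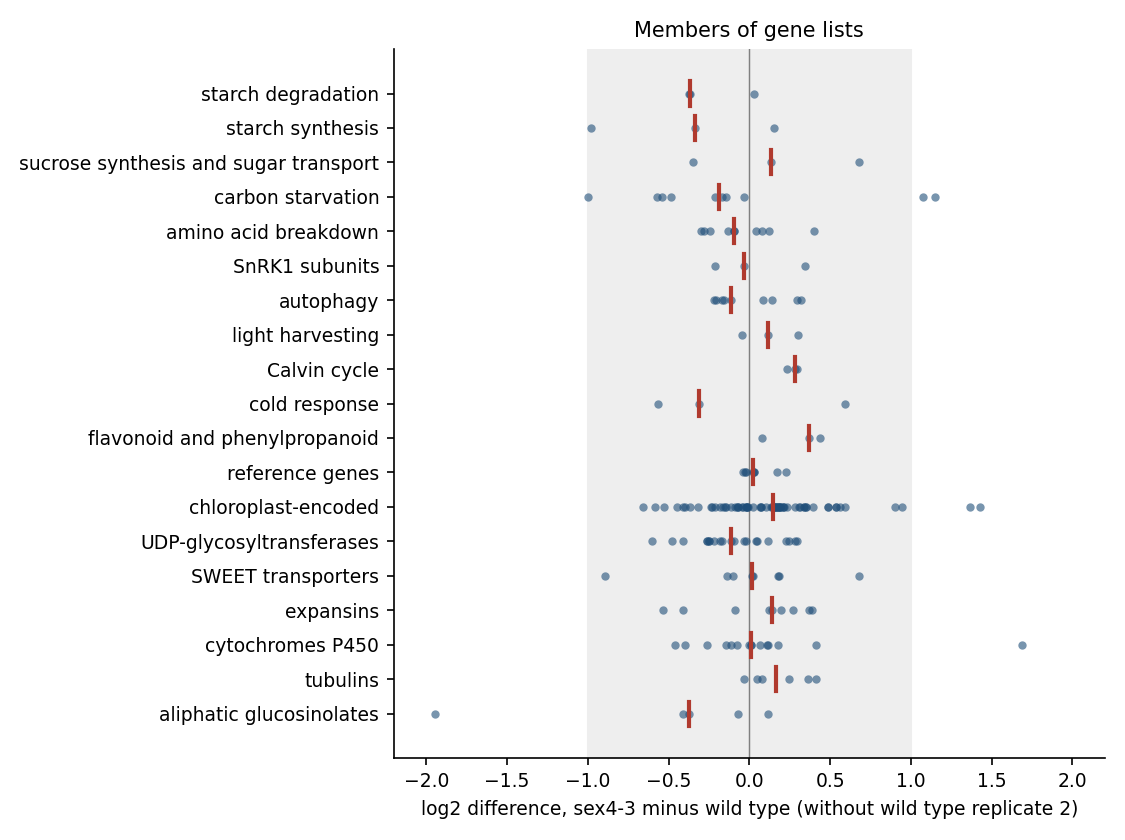
Log2 difference of sex4-3 minus wild type without wild type replicate 2 (horizontal axis) for tested members of the gene lists drawn, 1 point per gene, with the median as a red bar and the band of 2-fold in grey. The medians of the lists drawn lay between -0.37 and 0.37, and the drawn members furthest outside the band were BCAT4 at -1.95 and CYP78A9 at 1.69. Some small lists that are not drawn had medians further out. These were phosphoethanolamine methylation (2 genes, -0.84), circadian clock (1 gene, 0.79) and guard cell markers (1 gene, -0.59).

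Lists for other responses gave no call. In the cold response list, COR15A, COR15B and COR47, which encode protective proteins of cold and drought, differed from wild type by -0.57 ± 0.81, 0.59 ± 0.30 and -0.31 ± 0.39 without replicate 2. None of the 3 had an interval within 2-fold, against 76.3% of all probe sets, and COR15A had 52.3, 21.1 and 137 in sex4-3 and 39.9, 202 and 156 in wild type. PDF1.2, a defensin of the jasmonate response, had 222, 564 and 1546 in sex4-3 and 565, 215 and 696 in wild type, with a wide interval of -1.42 to 1.19. For flavonoid and phenylpropanoid synthesis, CHIL, DFR and CCOAMT were tested. CHIL, a chalcone isomerase-like protein, had 108, 108 and 88.3 in sex4-3, 1.13, 1.69 and 11.9 in sex1-3 and 113, 33.5 and 53.7 in wild type, with sex4-3 and wild type overlapping and sex1-3 below both. Its difference from sex1-3 without replicate 2 was 5.16 ± 0.62, adjusted p 9.9e-05, and that of CCOAMT, a methyltransferase of lignin precursors, was -2.10 ± 0.31, adjusted p 5.0e-04. DFR, dihydroflavonol reductase, differed from wild type by 0.44 ± 0.55 and CCOAMT by 0.08 ± 0.34 without replicate 2.

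Reference genes that are used for their steady expression gave the scale of closeness. All 8 tested of 18 had intervals within 2-fold without replicate 2 and 3 did with all arrays, with median differences of 0.02 and 0.37. Over all probe sets the shares within 2-fold were 76.3% and 41.2%. PEX4, the ubiquitin-conjugating enzyme also known as UBC21, had 239, 254 and 251 in sex4-3 and 230.4, 128 and 256 in wild type, a difference of 0.03 ± 0.15 without replicate 2. AT4G26410 and AT5G46630 differed by 0.17 ± 0.16 and -0.02 ± 0.20. Their median absolute difference without replicate 2 was 0.029, against 0.17 for the 9 autophagy genes and 0.51 for the 10 carbon starvation genes.

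Gene families were described as well, with counts of intervals to be read against the 76.3% of all probe sets within 2-fold without replicate 2. Of 22 tested UDP-glycosyltransferases, which attach sugars to hormones and secondary metabolites, 16 of the 21 kept without replicate 2 had an interval within 2-fold, with a median of -0.11. UGT78D1, a flavonol rhamnosyltransferase, had 106, 119 and 100.4 in sex4-3, 218, 204 and 197 in ptpkis2, 52.9, 41.4 and 47.1 in sex1-3 and 161, 26.8 and 140.3 in wild type. Without replicate 2 it passed against both mutants, at 1.21 ± 0.15, adjusted p 1.4e-04 for sex4-3 minus sex1-3 and -0.93 ± 0.15, adjusted p 0.0055 for sex4-3 minus ptpkis2. With all arrays no member of this family was called against sex1-3. Tubulins, the subunits of microtubules, had 6 tested members, all with intervals within 2-fold of wild type without replicate 2. Of these tubulins 5 were higher in sex4-3 than in sex1-3 without replicate 2, where 8.39% of all probe sets were, and 1 was called with all arrays. TUA6 had 818, 777 and 607 in sex4-3, 306, 359 and 226 in sex1-3 and 732, 177 and 515 in wild type. Among 15 cytochromes P450, 12 had an interval within 2-fold without replicate 2. CYP78A9, a regulator of organ growth, was the family member furthest from wild type, with 22.0, 25.3 and 25.1 in sex4-3 and 3.57, 12.8 and 15.7 in wild type, and its difference of 1.69 ± 0.56 was not called (limma adjusted p 0.83).

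Sugar transporters and cell wall proteins were varied, and their counts are again to be read against the 76.3% of all probe sets. Of 8 tested SWEET transporters, 4 had an interval within 2-fold without replicate 2, with a median difference of 0.02, and SWEET1 and SWEET2 differed by -0.14 ± 0.19 and -0.10 ± 0.20. Of 9 tested expansins, which loosen cell walls, 2 had such an interval, and the median difference was 0.14. EXPA8 had 822, 624 and 479 in sex4-3, 390.3, 278 and 359 in ptpkis2, 312, 336 and 249.8 in sex1-3 and 668, 359 and 481 in wild type. Its sex4-3 and wild type signals overlapped, with a difference of 0.14 ± 0.23, and it was higher in sex4-3 than in sex1-3 (1.08 ± 0.21, adjusted p 0.0034) and ptpkis2 (0.88 ± 0.21, adjusted p 0.047), without replicate 2. With all arrays no expansin was called against sex1-3. XTH32, a xyloglucan endotransglucosylase/hydrolase, differed from wild type by 0.15 ± 0.22 and from sex1-3 by 1.57 ± 0.19, adjusted p 1.2e-04. BGLU40, a beta-glucosidase, differed from wild type by 0.18 ± 0.26 and from sex1-3 by 1.24 ± 0.23, adjusted p 0.0028. Among 5 tau-class glutathione transferases, enzymes of detoxification, GSTU27 had 236, 257 and 233 in sex4-3 and 182, 223 and 155 in wild type, all above wild type, with a difference of 0.52 ± 0.15 that was not called (limma adjusted p 0.6). GSTU20 had 165, 138 and 239.5 in sex4-3, 57.9, 44.2 and 31.0 in sex1-3 and 190.4, 311 and 493 in wild type, and differed from wild type by -0.80 ± 0.34 and from sex1-3 by 2.04 ± 0.31, adjusted p 6.7e-04.

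The methylation of phosphoethanolamine, a step towards choline and phosphatidylcholine, was represented by 2 tested genes. Neither had an interval within 2-fold of wild type in either fit, against 41.2% of all probe sets with all arrays and 76.3% without replicate 2. The listed locus AT1G73600 had 156, 101 and 108 in sex4-3, 590.3, 609 and 699 in ptpkis2, 12.3, 6.82 and 4.95 in sex1-3 and 209.9, 89.6 and 236 in wild type. The difference of sex4-3 from wild type was -0.46 ± 0.40 with all arrays and -0.90 ± 0.30 without replicate 2 (limma adjusted p 0.83), while sex4-3 minus sex1-3 was 4.00 ± 0.27, adjusted p 1.8e-06 and sex4-3 minus ptpkis2 -2.40 ± 0.27, adjusted p 2.8e-04. PMEAMT, phosphoethanolamine N-methyltransferase, had 445, 409 and 344 in sex4-3, 96.3, 118 and 80.7 in sex1-3 and 694, 244 and 663 in wild type. For PMEAMT the difference from wild type was -0.28 ± 0.34 and -0.77 ± 0.17 in the 2 fits, not called, and sex4-3 minus sex1-3 was 2.03 ± 0.15, adjusted p 5.8e-06. For both genes the sex4-3 signals were below wild type replicates 1 and 3, above replicate 2 and above every sex1-3 signal.

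To look at genes that vary between starch mutants without using a sex4-3 or wild type array in the choice, probe sets were chosen by the difference between ptpkis2 and sex1-3 on their 6 arrays alone. This gave 2367 probe sets (17.3%) higher and 1855 (13.6%) lower in ptpkis2, with median differences between those mutants of 0.90 and -0.78. Over the first, the median of sex4-3 minus wild type was 0.05 without replicate 2, and over the second it was -0.08, beside -0.01 over all probe sets. None of them was called between sex4-3 and wild type. Of those with a value, 57.8% of the first and 36.2% of the second were above 0, against 47.8% of all. The median absolute difference was 0.17 and 0.16, against 0.16 over all, and the interval lay within 2-fold for 81.3% and 85.9%, against 77.5%. With all arrays the medians were 0.14 and 0.07, beside 0.03 over all, so the opposite signs were seen only without replicate 2. Without replicate 2, the unadjusted p was below 0.05 for 6.81% of the first and 9.18% of the second, against 4.75% of all, and signals did not overlap for 16.7% and 21.8%, against 17.6% of all.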

How the data were processed

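Leaf RNA of 4 genotypes was hybridised to 12 one-colour Affymetrix ATH1 arrays, 3 per genotype. The authors made the deposited signal intensities, which are linear, with MAS5 and GCOS, per the submitters' processing notes, of which no version is given there. The values were log2-transformed without a pseudocount or further scaling. Control probe sets were dropped, as were the dimmest 40% of the rest by mean log2 signal, chosen anew in the fits without wild type replicate 2. The program limma 3.58.1, run in R 4.3.3, fitted all genotypes together on 12 arrays (8 residual degrees of freedom) or 11 (7) by lmFit and eBayes with a trend, with two-sided tests, Benjamini-Hochberg adjustment over all probe sets kept and calls at an adjusted p below 0.05. Intervals are moderated 95% intervals. The fit and its intervals were tested on simulated data, where the intervals of the 12-array fit came out somewhat too narrow when 1 array was noisier than the rest. The simulated array had only more independent noise, without the raised median signal and spike-ins of wild type replicate 2. How far the real 12-array intervals are off was therefore not measured. The number of arrays limits the precision.

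Symbols came from the platform annotation, updated through a RefSeq table of TAIR10.1: apart from the controls, 13513 probe sets had 1 gene, of which 13436 matched RefSeq, 503 had several and 8730 are unnamed here. The members and lists were chosen with earlier results of these data known. The 22 lists hold 270 genes, of which 67 had a named probe set and 62 were tested, and their loci were written from memory. A further 11 lists (chloroplast-encoded genes, glucosinolate and phosphoethanolamine genes and gene families) were added after the files had been opened. The lists for trehalose phosphate, nitrogen assimilation and heat shock had no named probe set. The genes named are the calls with all arrays, without replicate 2 or with array weights, summarised where unnamed; the starch lists; up to 3 members of each other list with the highest mean signal; up to 6 genes per direction with the largest moderated t and signals that do not overlap; and list members called between sex4-3 and another mutant. Not all of the added lists' members under this rule are printed, and others printed for contrast were chosen after their values were seen. Alternatives were other normalizations, filters, a floor, a pseudocount, variance models, a fit of 6 arrays, array weights, and the replicate number as a block. Each sex4-3 and wild type array was also left out in turn, but no ptpkis2 or sex1-3 array was. Same-numbered sex4-3 and wild type arrays had correlations of their deviations from the group means of 0.08, -0.04 and 0.11, so the numbers do not pair them.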

Additional observations from a re-analysis of the deposited data

Results flagged for a closer look

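The spike-in control probe sets, which are not plant transcripts and entered no comparison, had a median ratio of 23.7 on wild type replicate 2 to the other arrays. On the other 11 arrays the ratio lay between 0.537 and 1.44. This array belongs to the wild type group of every difference given above, and the part that its state has in each result is given by the values without it.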

How the results depend on the processing

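The number of probe sets called between sex4-3 and wild type was 1, and it was 0 after quantile normalization, after median centring and with the sex4-3 and wild type arrays fitted alone, where limma's unadjusted p was below 0.05 for 524, 476 and 121. It was 24 with array weights, which also called 3 list members (QQS, SWEET17 and AT2G05540) where the other planned settings called 0. In every fit that left out 1 sex4-3 or wild type array the number of probe sets called was 1. Median centring moved the median of all differences to 0.43 and quantile normalization to 0.15, against 0.02 without them. With the replicate block the count was 1, and 5475 intervals lay within 2-fold; the numbers do not pair the arrays. The count of intervals within 2-fold was 3480 after median centring, 10926 with array weights and between 4150 and 10411 with 1 array left out. Means over 2-fold apart numbered 2582 after quantile normalization, 2375 after median centring, 5789 without a filter, 631 with the lowest 60% left out, 837 with a pseudocount, 264 with array weights, and 187 to 3236 with 1 array left out.

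When wild type replicate 2 was dropped but the 12-array filter kept, 10415 intervals lay within 2-fold and 190 means were over 2-fold apart. Settings added after seeing the data combined its removal with another choice. These 2 counts were 10455 and 187 with quantile normalization, 10447 and 180 with median centring, 10380 and 150 with the 6 arrays less that one alone, 10352 and 201 with array weights, and 10127 and 3444 without a filter. Of these, the fit of the pair alone called 2 probe sets, 256676_at and 248676_at, and the others 1.

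Among 19 genes or probe sets followed through the settings, 17 of 428 values turned sign, all of APL3, DPE1 or PWD, which were not called in any setting. APL3 was at 0.24 after quantile normalization and after median centring, 0.071 with array weights, and without replicate 2 at 0.15, or 0.19, 0.17 and 0.0036 with quantile normalization, median centring or array weights. DPE1 was at 0.031 without replicate 2, or 0.080 and 0.047 with quantile normalization or median centring, and at -0.35 with array weights. PWD was at 0.013 after median centring. With 1 array left out, APL3 ran between -0.39 and 0.15 and DPE1 between -1.14 and 0.031. The cause was not tested for any of these changes. Dim probe sets had the widest intervals, and the 12-array intervals assume an equal spread on all arrays.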
